A study of Mus musculus with 12 samples.

Results

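Tshr, Cep128, Gtf2a1 and Ston2 are 4 neighbouring genes on mouse chromosome 12, taken by name from the 25749 genes listed in the expression tables of injured and uninjured brain. Tshr encodes the receptor for thyroid-stimulating hormone. Cep128 encodes a centriole protein, Gtf2a1 a subunit of a general transcription factor and Ston2 an endocytic adaptor. The genes were chosen by the measured values of Tshr and its neighbours: the exon reads of Tshr, and to a lesser degree those of Cep128, were lower in both injured groups than in uninjured brain. Those differences are given as a description, with no test, for all 4 genes. The comparison of antibody-treated with injured mice played no role in that choice, although it uses the same libraries, and it was tested.

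Total RNA came from the brains of 12 male B6 mice aged 13 weeks, 4 mice in each of 3 groups. One group had a cerebrovascular injury and continuous treatment with antibodies to LFA1 and VLA4, integrins that leukocytes use to adhere to and cross vessel walls; these mice are called antibody-treated. A second group had the injury alone, and the third was uninjured. Tissue was a cube with edges of 3 mm taken after saline perfusion on day 20 after injury; the protocol text describes injured tissue, and the site sampled in uninjured mice is not stated in the labels. The labels name no transgene, no Cre driver and no control antibody, and each library is a separate mouse, so p-values measure the spread between mice.

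Thyroid-stimulating hormone is a pituitary hormone. Its receptor, a G protein-coupled receptor, drives hormone synthesis in thyroid follicles mainly through the stimulatory G protein and cyclic AMP. In the brain the receptor is best known from seasonal timing, in which hormone from the pars tuberalis of the pituitary acts on tanycytes and raises type 2 deiodinase. CEP128 sits on the subdistal appendages of the mother centriole, the structures that anchor microtubules. TFIIA, of which GTF2A1 supplies the large subunits after cleavage, steadies the TATA-binding protein on promoters, and stonin 2 links synaptotagmin to the AP2 adaptor during vesicle retrieval.

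In GRCm38 coordinates Cep128 (ENSMUSG00000061533) lay on the minus strand at chr12:90998492-91384409 with 30 annotated exons. Tshr (ENSMUSG00000020963) lay on the plus strand at chr12:91384563-91549808 with 17 exons. Gtf2a1 (ENSMUSG00000020962), with 11 exons, and Ston2 (ENSMUSG00000020961), with 13, followed on the minus strand at chr12:91555262-91590487 and chr12:91633009-91788387. The starts of Cep128 and Tshr face away from each other and are 154 bases apart, as the map of the locus shows. The ends of Tshr and Gtf2a1 are separated by 5453 bases, and Gtf2a1 and Ston2 by 42521 bases. Of all 25749 genes listed, 1673 (6.50%) had a start facing away from another gene's start within 1000 bases.

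**Figure D1:**
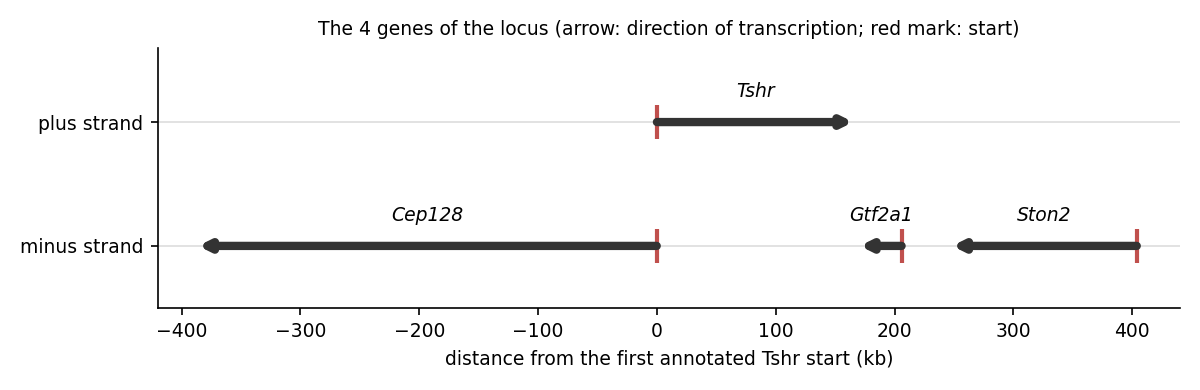
Map of the 4 genes by strand, with distance from the first annotated Tshr start in kb; arrows run in the direction of transcription and red marks show the starts. Cep128 and Tshr begin 154 bases apart and run in opposite directions, whereas Gtf2a1 and Ston2 have starts of their own.

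The window below is shown because it holds the start of Cep128 and the start of 2 of the annotated Tshr transcripts. Sequences are from RefSeq (GRCm38.p6, 300 bases around a start), where 3 of the 4 genes matched by symbol; Tshr was not among them. The Cep128 window, chr12:91384360-91384659 on the minus strand, starts Cep128 at base 251. On the opposite strand Tshr-205 starts at base 97 and Tshr-204, a coding transcript that spans the gene, at base 94. The Gtf2a1 window, chr12:91590438-91590737 on the minus strand with its own start at base 251, is shown beside it as a promoter that no other member shares. Capitals mark matches to the ZNF143 core (ACTACA, any 3 bases, then CCCA) and to the ETS core CCGGAA on the opposite strand in the Cep128 window, and to the ETS core and the E-box CACGTG in the Gtf2a1 window.
Cep128: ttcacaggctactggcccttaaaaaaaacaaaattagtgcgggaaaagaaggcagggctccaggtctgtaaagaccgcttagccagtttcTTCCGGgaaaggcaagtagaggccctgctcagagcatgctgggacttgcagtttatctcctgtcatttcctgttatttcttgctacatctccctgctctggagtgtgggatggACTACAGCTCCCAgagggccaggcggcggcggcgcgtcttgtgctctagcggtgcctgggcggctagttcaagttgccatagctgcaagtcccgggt
Gtf2a1: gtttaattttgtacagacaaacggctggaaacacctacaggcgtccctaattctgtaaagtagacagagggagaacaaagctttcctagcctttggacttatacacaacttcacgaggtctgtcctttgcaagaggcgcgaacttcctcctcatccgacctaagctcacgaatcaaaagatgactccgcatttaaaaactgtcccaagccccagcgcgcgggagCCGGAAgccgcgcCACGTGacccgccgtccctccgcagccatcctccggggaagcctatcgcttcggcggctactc

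The ZNF143 core, named for a zinc finger protein that binds promoters, matched bases 204 to 216 of the Cep128 window. It was found on either strand in 554 of 32851 RefSeq windows (1.69%). The ETS core, which proteins of the ETS family bind, was read on the opposite strand at bases 91 to 96 of that window. Those bases include the Tshr-204 start at base 94, and the Tshr-205 start at base 97 lies beside them. The ETS core matched 14.9% of all windows. In the Gtf2a1 window the ETS core was at bases 225 to 230 and the E-box at bases 238 to 243; the E-box matched 7.15% of windows. The Cep128 window also held the GC box GGGCGG at bases 261 to 266 (35.7% of windows), and none of the marked motifs overlapped. Searched motifs with no match on either strand in the windows of the 3 genes were the cyclic AMP response element TGACGTCA (1.79% of all windows), the CCAAT box (37.4%), the TATA box TATAAA (13.6%) and the NRF1 motif, GCGC, any 2 bases, then GCGC (6.23%). The Ston2 window held the nuclear receptor motif AGGTCA at bases 128 to 133 (16.3% of windows). GC content was 54.7% in the Cep128 window with 11 CpG, against a median of 52.7% and 7 CpG over all windows. A match is a description of letters and not evidence that a factor binds.

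Depth was 13330379 to 13917157 exon reads per library in antibody-treated, 15507462 to 16121577 in injured and 15159988 to 15781229 in uninjured mice. Intron reads were far fewer, at 821769 to 1124749 in antibody-treated, 1121183 to 1179373 in injured and 940907 to 1166939 in uninjured mice. Defining markers of neurons, astrocytes and oligodendrocytes had reads in every group. Uninjured replicate 1 and antibody-treated replicate 4 stood apart from the other libraries in an earlier principal component analysis of these data. Without both, the log2 fold change of Tshr exon reads was -1.94 in injured and -1.56 in antibody-treated mice, each against uninjured mice.

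Tshr was the least abundant of the 4 genes. By TPM, the per-length scale of the deposited tables in which the values of a library sum to a fixed total, uninjured brain held 0.488 ± 0.0683 TPM of Tshr (SD, n = 4). Ston2 stood at 4.80 ± 1.12, Cep128 at 4.18 ± 0.764 and Gtf2a1 at 15.4 ± 2.04 TPM in the same mice. Only 2.41% of the genes tested had a lower mean TPM than Tshr in uninjured brain. Against that, 23.7% were below Cep128, 25.9% below Ston2 and 50.1% below Gtf2a1. The levels of Cep128 and Ston2 differed by less than their SDs, whereas the ranges of Tshr and Gtf2a1 did not overlap those of the other genes.

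Tshr exon reads numbered 4, 4, 8 and 8 in the antibody-treated libraries, 8, 1, 7 and 3 in the injured libraries and 20, 20, 16 and 15 in the uninjured libraries. Every uninjured library was above every library of both injured groups, whose values overlapped each other. Summed over 4 mice the reads came to 24 (exact Poisson 95% interval 15.4 to 35.7) in antibody-treated, 19 (11.4 to 29.7) in injured and 71 (55.5 to 89.6) in uninjured mice. These intervals, like the others given for reads, cover counting error only. In TPM the antibody-treated libraries had 0.117, 0.119, 0.255 and 0.236, the injured libraries 0.233, 0.0268, 0.196 and 0.0876, and the uninjured libraries 0.559, 0.532, 0.425 and 0.433. All 114 Tshr exon reads were listed as unique to one place in the genome.

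Intron reads, which in a total RNA library come largely from unspliced transcripts, showed a wider gap. Tshr had 2, 2, 6 and 2 intron reads in antibody-treated, 4, 1, 2 and 1 in injured and 17, 21, 23 and 26 in uninjured libraries. No library of either injured group came near the lowest uninjured library. Reads of Tshr across annotated splice junctions were few in all groups and numbered 0, 1, 0 and 0 in antibody-treated, 1, 0, 0 and 0 in injured and 3, 2, 1 and 1 in uninjured libraries. A processed pseudogene, Gm18827, lies in Tshr on the same strand and is not listed in the tables, so any reads from it would be counted with Tshr. Of the Tshr intron reads 96.3% were unique.

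**Figure D2:**
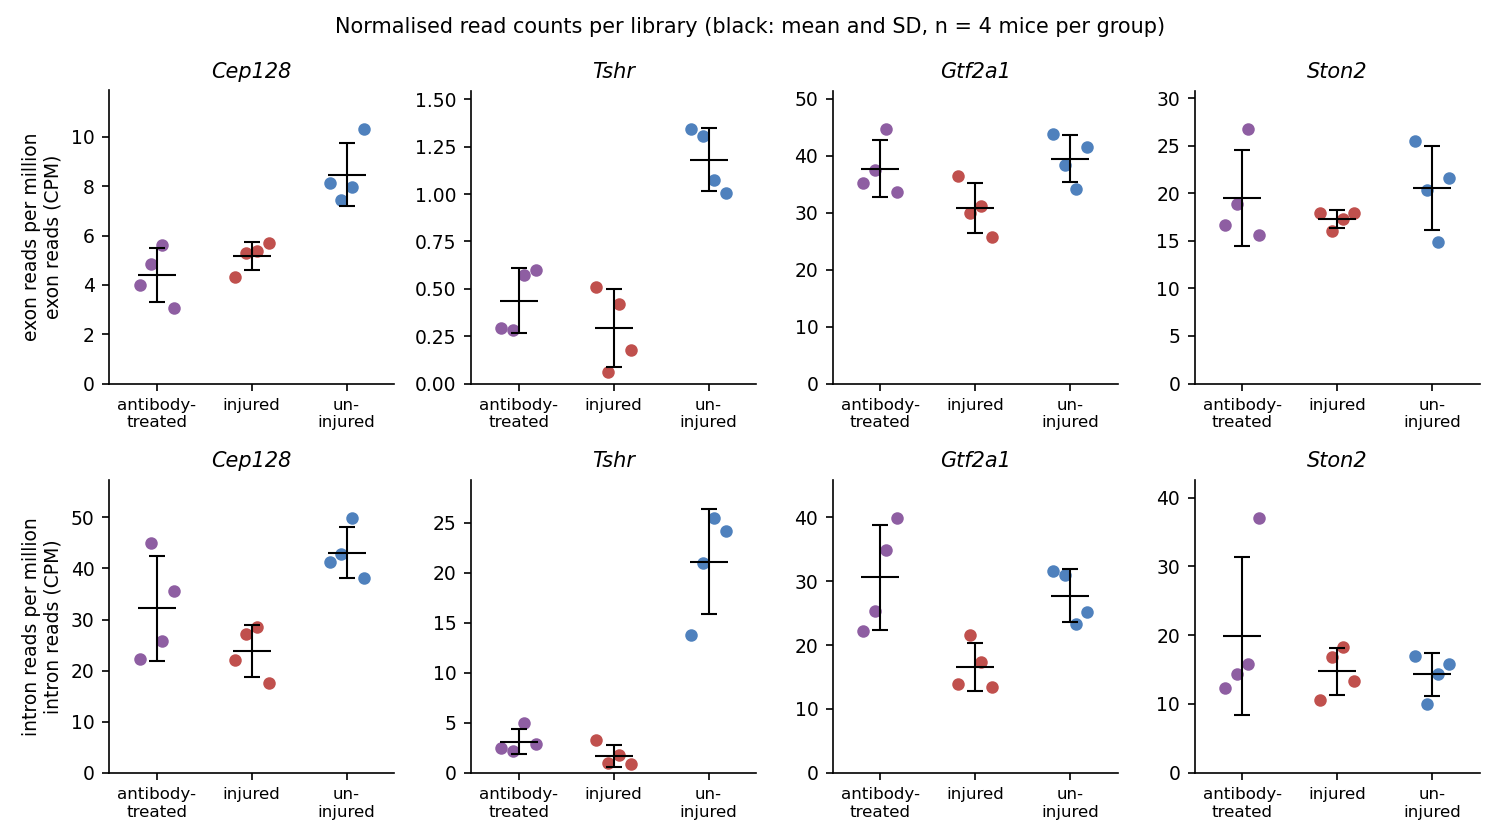
Normalised read counts per library (CPM, scaled to library size, linear axis from 0), exon reads above and intron reads below, for antibody-treated, injured and uninjured mice from left to right; points are libraries and bars the mean and SD of 4 mice. The uninjured Tshr points (1.01 to 1.35 exon CPM, 13.8 to 25.5 intron CPM) lie clear of both injured groups, while those of Ston2 overlap throughout.

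As CPM, the read count scaled to the TMM-adjusted total of the library, Tshr exon reads averaged 0.437 ± 0.172 in antibody-treated, 0.293 ± 0.208 in injured and 1.18 ± 0.167 CPM in uninjured mice (SD, n = 4 each). The fitted log2 fold change of injured against uninjured mice was -1.99 (SE 0.39, 95% interval -2.82 to -1.16), which is 3.97 times lower. Antibody-treated against uninjured mice gave -1.42 (SE 0.37, interval -2.23 to -0.62), which is 2.68 times lower. Intron reads averaged 3.13 ± 1.27 in antibody-treated, 1.69 ± 1.12 in injured and 21.1 ± 5.25 CPM in uninjured mice, scaled to the total of intron reads. Their log2 fold change was -3.51 (SE 0.40) in injured and -2.62 (SE 0.38) in antibody-treated mice, each against uninjured mice. With exon and intron reads of the gene added together, an alternative added after the data were seen, the values were -2.64 and -1.99. The filter on low counts asked for 0.647 exon CPM or 9.11 intron CPM in 4 libraries, and Tshr passed both only through the 4 uninjured libraries. Among all 14771 genes tested on exon reads, 11.9% were called higher and 11% lower in injured than in uninjured mice at an edgeR adjusted p under 0.05. The corresponding shares in antibody-treated against uninjured mice were 6.3% higher and 3.22% lower. Exon CPM did not overlap between injured and uninjured mice, in either direction, for 30.3% of genes tested. Between antibody-treated and uninjured mice this held for 15.6%. On intron reads the shares without overlap were 11.4% and 8.31%. Since the choice of Tshr rests on these contrasts, nothing is read from its place among them.

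Introns supplied 12 of the 36 Tshr reads in antibody-treated mice (33.3%, exact binomial 95% interval 18.6 to 51.0%) and 8 of 27 in injured mice (29.6%, 13.8 to 50.2%). In uninjured mice they supplied 87 of 158 (55.1%, 47.0 to 63.0%). The log2 ratio of intron to exon CPM was 0.92 lower in injured and 0.94 lower in antibody-treated than in uninjured mice, with an SE of 0.29 for each; the groups' mean log2 ratios were 3.17 in antibody-treated, 3.19 in injured and 4.11 in uninjured mice. In no group did the other 3 genes reach the 55.1% of Tshr in uninjured mice. The Cep128 share in antibody-treated mice was close to that of Tshr there and above that of Tshr in injured mice. Introns held 24.6 to 32.1% of Cep128 reads, 3.65 to 5.06% of Gtf2a1 reads and 4.70 to 5.93% of Ston2 reads over the 3 groups.

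Cep128, which starts beside Tshr on the opposite strand, had 55, 68, 79 and 41 exon reads in antibody-treated, 68, 85, 89 and 96 in injured and 121, 114, 119 and 154 in uninjured libraries. As for Tshr, every uninjured library was above all libraries of both injured groups. Of all genes tested, 30.3% had no overlap in exon CPM between injured and uninjured mice. Between antibody-treated and uninjured mice 15.6% had none. Exon CPM averaged 4.39 ± 1.10 in antibody-treated, 5.17 ± 0.582 in injured and 8.47 ± 1.28 in uninjured mice (SD, n = 4 each). The log2 fold change was -0.71 (SE 0.16, interval -1.06 to -0.36) in injured and -0.94 (SE 0.17, interval -1.30 to -0.58) in antibody-treated mice, each against uninjured mice.

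Cep128 intron reads numbered 18, 41, 31 and 25 in antibody-treated, 27, 29, 33 and 21 in injured and 51, 43, 45 and 41 in uninjured libraries. After scaling, the injured libraries (17.5 to 28.6 CPM) were all below the uninjured ones (38.2 to 49.9 CPM), and the antibody-treated libraries (22.3 to 45.1 CPM) overlapped both. On intron reads 11.4% of all genes tested had no overlap between injured and uninjured mice. The log2 fold change was -0.85 (SE 0.22) in injured and -0.42 (SE 0.22) in antibody-treated mice, each against uninjured mice. Junction reads made up 82 of 243 exon reads of Cep128 in antibody-treated (33.7%), 109 of 338 in injured (32.2%) and 158 of 508 in uninjured mice (31.1%). The other 3 genes had lower shares, at 4.17 to 9.86% for Tshr, 4.32 to 7.23% for Gtf2a1 and 2.32 to 3.07% for Ston2 over the 3 groups, against 22.6 to 30.9% of all exon reads in the 12 libraries. The antisense gene 5430427M07Rik, a miRNA gene and 3 processed pseudogenes overlap Cep128 on the other strand and are not listed in the tables. The library kit keeps strand, but whether the counting used it is not stated, so reads from overlapping genes cannot be told apart.

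Gtf2a1 had 482, 527, 627 and 447 exon reads in antibody-treated, 573, 481, 517 and 434 in injured and 652, 589, 509 and 618 in uninjured libraries. Its exon CPM averaged 37.7 ± 4.92 in antibody-treated, 30.8 ± 4.45 in injured and 39.5 ± 4.18 in uninjured mice (SD, n = 4 each), and all 3 groups overlapped. The log2 fold change was -0.36 (SE 0.12) in injured and -0.06 (SE 0.12) in antibody-treated mice, each against uninjured mice. The injured value was -0.0010 once the trends of reads with GC content and length were removed from each library. Gtf2a1 has the lowest exon GC content of the 4 genes, 40.8% against 46.7 to 48.0%. Its intron reads numbered 18, 23, 42 and 28 in antibody-treated, 17, 23, 20 and 16 in injured and 39, 31, 21 and 27 in uninjured libraries. The intron log2 fold change was -0.76 (SE 0.24) in injured and 0.13 (SE 0.22) in antibody-treated mice, each against uninjured mice.

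Ston2, the farthest of the 4 from the Tshr start, had 229, 266, 376 and 208 exon reads in antibody-treated, 282, 257, 287 and 303 in injured and 380, 312, 222 and 322 in uninjured libraries. The groups overlapped, at 19.5 ± 5.05 CPM in antibody-treated, 17.3 ± 0.918 in injured and 20.6 ± 4.40 in uninjured mice (SD, n = 4 each). The log2 fold change was -0.25 (SE 0.17, interval -0.62 to 0.12) in injured and -0.08 (SE 0.17, interval -0.45 to 0.29) in antibody-treated mice, each against uninjured mice. For intron reads it was 0.02 (SE 0.32) in injured and 0.40 (SE 0.32) in antibody-treated mice against uninjured mice. The size of the exon difference between injured and uninjured mice ran Tshr, Cep128, Gtf2a1, Ston2. With the GC and length trend removed Ston2 (-0.06) and Gtf2a1 (-0.0010) changed places. The order is neither tested nor independent of how the genes were chosen, and the intervals of Cep128, Gtf2a1 and Ston2 overlap.

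**Figure D3:**
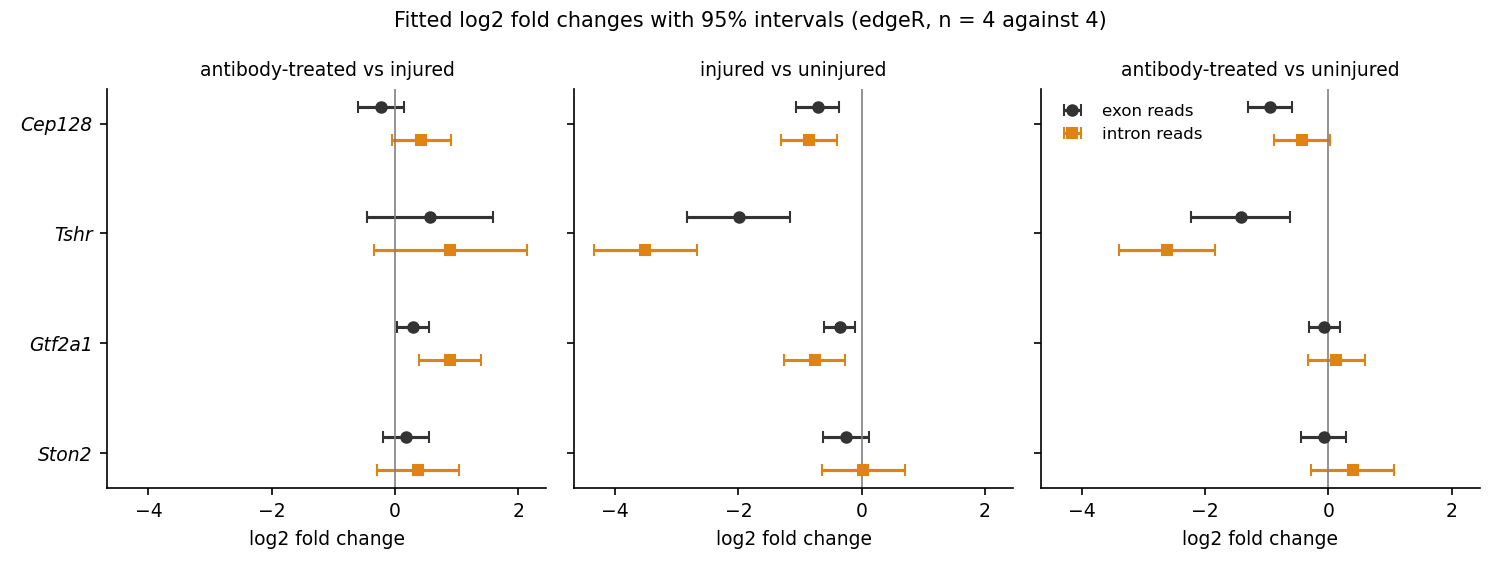
Fitted log2 fold changes (x axis) with 95% intervals for exon reads (circles) and intron reads (squares) of the 4 genes in the 3 comparisons, edgeR, 4 mice against 4. Against uninjured mice the Tshr values, which led to its choice and are not a test, are -1.42 for exon and -2.62 for intron reads in antibody-treated and -1.99 and -3.51 in injured mice. Between antibody-treated and injured mice the intervals of Tshr span 0, and that of Gtf2a1 intron reads lies above 0.

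Antibody-treated mice were then tested against injured mice, the comparison in which the antibody is the stated difference. No exon difference of the 4 genes passed adjustment over the 14771 genes, of which 10.9% were called higher and 10.7% lower. Tshr had a log2 fold change of 0.57 (SE 0.47, 95% interval -0.46 to 1.59, edgeR adjusted p = 0.422). Its 8 libraries in this comparison held 1 to 8 exon reads and were all below the filter, which Tshr passed through the uninjured libraries alone. With so few reads the interval is wide, and the test cannot decide whether Tshr differed between these groups. For Cep128 it was -0.23 (SE 0.17, interval -0.61 to 0.14, edgeR adjusted p = 0.363) and for Ston2 0.17 (SE 0.17, interval -0.20 to 0.55, edgeR adjusted p = 0.504). Gtf2a1 gave 0.29 (SE 0.12, interval 0.04 to 0.55, edgeR adjusted p = 0.0935), which passed without injured replicate 1 (0.41, adjusted p = 0.0302) and without the pair of libraries that stood apart (0.34, adjusted p = 0.0470). With the GC and length trend removed it was 0.05 (adjusted p = 0.535).

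Intron reads of Gtf2a1 were the one value of the 4 genes that passed. They averaged 30.6 ± 8.23 CPM in antibody-treated and 16.5 ± 3.78 CPM in injured mice (SD, n = 4 each), and the groups did not overlap. The log2 fold change was 0.89 (SE 0.24, interval 0.40 to 1.39, edgeR adjusted p = 0.0251). Over all 11279 genes tested on intron reads 5.4% were called higher and 4.1% lower, and 14.7% had groups that did not overlap. The call was lost with the scaling factors of the exon reads (edgeR adjusted p = 0.138) and without injured replicate 1 (0.0607), 3 (0.0548) or 4 (0.0974) or antibody-treated replicate 4 (0.0656). It was also lost with the replicate number as a block in the fit. Intron reads of Tshr had a log2 fold change of 0.89 (SE 0.60, interval -0.35 to 2.13, edgeR adjusted p = 0.350), on 1 to 6 reads per library and again below the filter in both groups. The intron value was 0.43 for Cep128 (SE 0.23, edgeR adjusted p = 0.243) and 0.37 for Ston2 (SE 0.32, adjusted p = 0.476). The log2 intron to exon ratio of Tshr gave a difference of -0.02 (SE 0.29) with 2 reads added to each count and 0.02 with 1 read added, so at these counts its direction is set by the reads added. No ratio of the other 3 genes passed, where 0.306% of 11098 genes did; those of Cep128 (0.63, SE 0.28) and Gtf2a1 (0.51, SE 0.21) had limma adjusted p = 0.239 and 0.218.

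Across the 12 libraries the log2 exon CPM of Tshr had a Pearson correlation of 0.55 with Cep128, 0.67 with Gtf2a1 and 0.42 with Ston2. With each group's mean removed, the values were -0.32 for Cep128, 0.45 for Gtf2a1 and 0.27 for Ston2. These are descriptions over 12 libraries that share their groups and scaling. The named genes most like Tshr were Ppp1r7 (0.91), Nedd1 (0.90), Slitrk2 (0.89), Tfrc (0.88) and Hmgcs1 (0.88), out of 13493 genes averaging at least 1 CPM. With each group's mean removed, they had 0.62, 0.82, 0.68, 0.50 and 0.54 in that order. The ranking includes the group differences by which Tshr was chosen. Tfrc, the transferrin receptor, averaged 91.7 CPM in antibody-treated, 82.7 in injured and 144.4 in uninjured mice. Hmgcs1, an enzyme of cholesterol synthesis, averaged 230.9, 210.9 and 282.4 CPM in the same groups. Those most like Cep128 were Mfsd4a (0.94), Scn4b (0.93), Tbc1d8 (0.93), Slc1a1 (0.92) and Ptprj (0.92). Within groups these had 0.74, 0.75, 0.90, 0.68 and 0.71 in that order. Scn4b, a sodium channel subunit, averaged 281.7 CPM in antibody-treated, 323.4 in injured and 392.3 in uninjured mice. Of the candidates for Tshr 2288 had a higher correlation than Cep128.

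Beyond the 4 genes, 52 genes are listed within 5 Mb of Tshr, of which 25 were tested. These were taken by position, so all 3 comparisons could be tested. In injured against uninjured mice 2 were called higher and 3 lower, beside 11.9% higher and 11% lower of all genes tested. In antibody-treated against uninjured mice 1 was higher and 1 lower, beside 6.3% and 3.22%, and in antibody-treated against injured mice 1 was higher and 3 lower, beside 10.9% and 10.7%. Counts over 25 genes at these shares are no result about the neighbourhood. Leaving out single libraries gave 1 to 6 called genes in the first comparison, 0 to 12 in the second (12 without antibody-treated replicate 3) and 2 to 7 in the third. The median log2 fold changes of the 25 genes were 0.04, 0.02 and 0.05 in that order, against 0.03, 0.01 and 0.01 over all genes. The values of the 25 genes ran from -0.48 to 0.74, from -0.64 to 1.21 and from -0.92 to 0.48.

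Within 2 Mb 5 genes are listed and 4 were tested: Nrxn3, Gm48700, Dio2 and Sel1l. Dio2, type 2 deiodinase, which makes active thyroid hormone, averaged 67.0 ± 4.23 CPM in antibody-treated, 67.9 ± 4.00 in injured and 80.8 ± 9.0 in uninjured mice (SD, n = 4 each). It fell in the injured group relative to the uninjured one (-0.25 on the log2 scale, edgeR adjusted p = 0.0435), a call lost with the GC and length trend removed (0.01, adjusted p = 0.955). It was also lost with library size alone (-0.17, adjusted p = 0.123), without the pair of libraries that stood apart (-0.20, adjusted p = 0.0805), and without uninjured replicate 1, 2 or 4 or injured replicate 2, 3 or 4 (-0.30 to -0.18, adjusted p = 0.0510 to 0.141). Nrxn3, a presynaptic adhesion molecule, fell by 0.37 on the log2 scale in the same comparison (edgeR adjusted p = 0.0398), a call lost without any of the same 6 libraries (-0.39 to -0.29, adjusted p = 0.0650 to 0.128), with library size alone (-0.29, adjusted p = 0.0770) and without the pair (-0.31, adjusted p = 0.0770). Antibody-treated against uninjured mice gave log2 fold changes of -0.27 for Dio2 (edgeR adjusted p = 0.0573) and -0.30 for Nrxn3 (0.128); without antibody-treated replicate 3 both passed (-0.32, adjusted p = 0.0187, and -0.41, adjusted p = 0.0163), and Dio2 also passed without uninjured replicate 3 (adjusted p = 0.0232).

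Sel1l, a component of endoplasmic reticulum degradation next to Ston2, had log2 fold changes of -0.18 in injured and -0.02 in antibody-treated mice against uninjured mice. Antibody-treated against injured mice gave 0.16. None of the 3 was called in the main fit, and the last was called under 1 alternative. Gm48700, an unconfirmed transcript inside Nrxn3, had 4 to 23 reads per library and was not called. The nearest called gene on the far side of Ston2 was Flrt2, a guidance and adhesion receptor, which fell by 0.48 in injured against uninjured mice (edgeR adjusted p = 0.0207). The remaining called genes, named after their values were seen, all lay over 4 Mb before Tshr. Esrrb (0.52) and Zdhhc22 (0.28) rose in injured against uninjured mice. Irf2bpl rose (0.23) and Angel1 fell (-0.38) in antibody-treated against uninjured mice. Sptlc2 rose (0.20) while Vash1 (-0.92), Angel1 (-0.34) and Zdhhc22 (-0.26) fell in antibody-treated against injured mice.

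**Figure D4:**
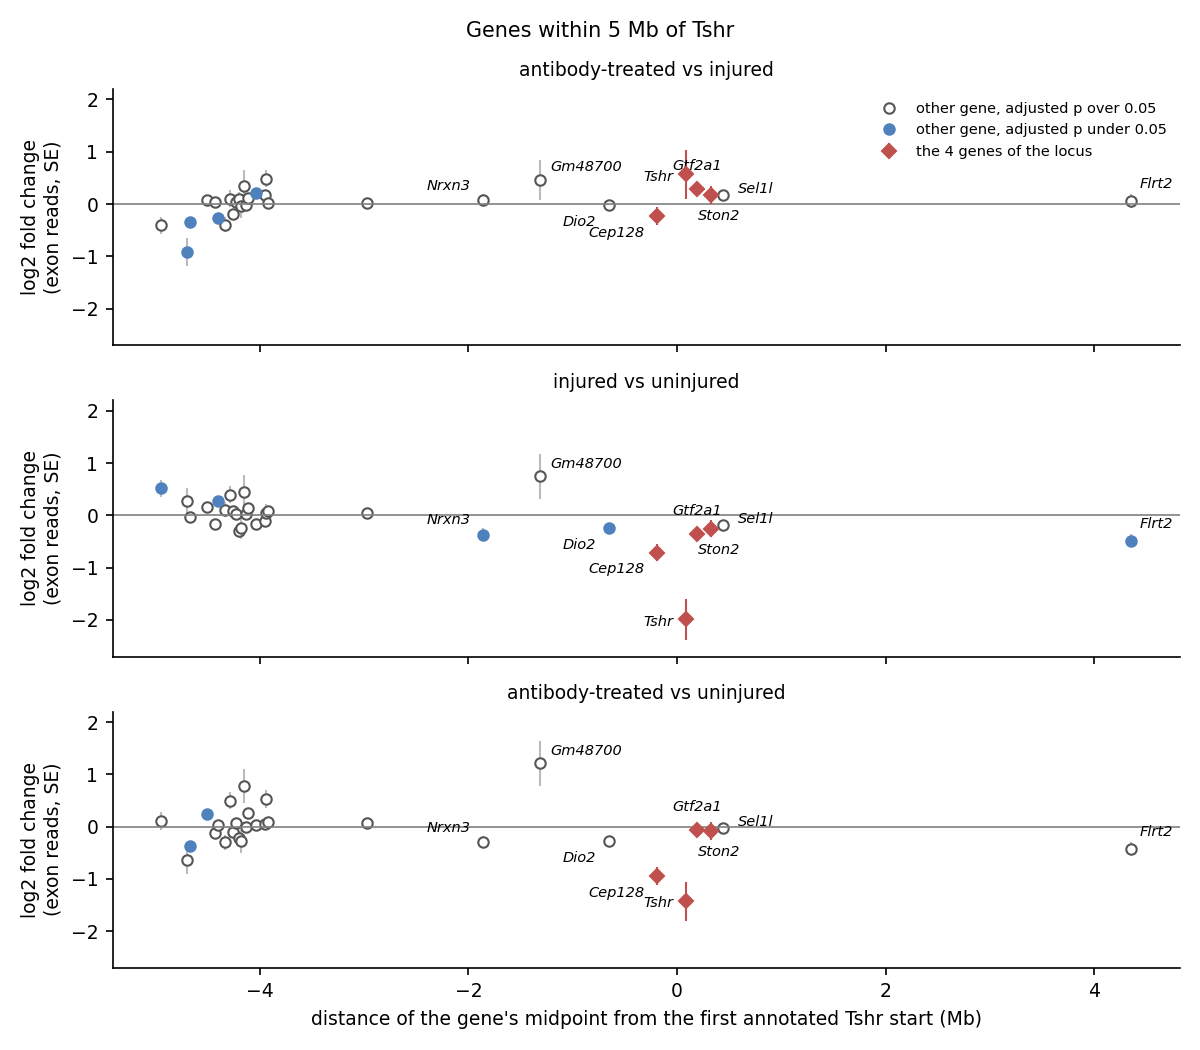
Log2 fold change of exon reads (y axis, with SE) against the distance of each gene's midpoint from the first annotated Tshr start in Mb, for the 4 genes (diamonds) and the 25 other tested genes within 5 Mb (circles, filled where the edgeR adjusted p was under 0.05). The places of Tshr and Cep128 against uninjured mice follow from how the genes were chosen. In antibody-treated against injured mice Tshr (0.57) is drawn above the highest of the 25 other genes (0.48), and Cep128, Gtf2a1 and Ston2 lie within their range. The 95% interval of Tshr there is -0.46 to 1.59. Without injured replicate 2 its value is 0.24, so its place is not settled.

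The hormone arm of the pathway was all but absent. Tshb, the beta subunit of thyroid-stimulating hormone, had 0 reads over the 4 antibody-treated, 0 over the 4 injured and 2 over the 4 uninjured libraries. Its partner Cga had 0, 1 and 0 reads, and Gpha2 and Gphb5, the subunits of thyrostimulin, the other ligand of the receptor, had at most 1. Trh, the releasing hormone, and Trhr, its receptor, were measured at 3.35 ± 0.471 and 4.51 ± 0.742 CPM in antibody-treated, 2.63 ± 0.231 and 2.5 ± 1.11 in injured and 2.24 ± 0.632 and 2.90 ± 0.623 in uninjured mice.

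Of 24 genes listed for the hormone, its receptor and cyclic AMP signalling, 19 were tested besides Tshr. Of all genes tested, 11.9% were called higher and 11% lower in injured against uninjured mice. The shares were 6.3% and 3.22% in antibody-treated against uninjured and 10.9% and 10.7% in antibody-treated against injured mice. They stand beside the counts of each list below. In injured against uninjured mice 1 was called higher and 4 lower, with a median of -0.10 against 0.03 over all genes. Prkar2b, a regulatory subunit of protein kinase A (-0.58), Adcy5, an adenylyl cyclase (-0.25), and Creb1, a transcription factor that the kinase phosphorylates (-0.47), fell with edgeR adjusted p = 0.00409, 0.0183 and 0.0306. In antibody-treated against uninjured mice edgeR called 0 higher (3 at an unadjusted p under 0.05, 0 by DESeq2) and 3 lower: Adcy5 (-0.28), Pde8b (-0.28) and Arrb1 (-0.30). Against injured mice, the antibody-treated group had 2 higher and 3 lower, among them Grk2 (-0.26), Arrb1 (-0.32) and Prkar2b (0.36). Trhr was also higher there (0.85, edgeR adjusted p = 0.0385).

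Thyroid hormone transport, conversion and response was covered by 20 genes, of which 19 were tested and Dio2 is one. In injured against uninjured mice 4 rose and 4 fell, beside 11.9% and 11% of all genes tested. Klf9, a target of the hormone receptor, fell by 0.51, whereas Thra (0.28), a hormone receptor, and Hr (0.23), a corepressor it induces, rose. In antibody-treated against uninjured mice 0 were called higher (2 at an unadjusted edgeR p under 0.05, 0 by DESeq2) and 3 lower: Hr (-0.31), the transporter Slco1c1 (-0.33) and Camk4 (-0.56). Against injured mice 2 rose and 4 fell in the antibody-treated group, with Hr (-0.54), Thra (-0.30) and Ttr (0.68), a carrier of the hormone made by choroid plexus, at the smallest p. Choroid plexus markers, of which Ttr is one, summed to 1124 to 1879 in antibody-treated, 784.6 to 1086 in injured and 960.9 to 1287 CPM in uninjured libraries, and 7 of 7 were higher in antibody-treated than in injured mice. The genes of thyroid follicles were mostly at or near 0. Of 10 listed, 4 were tested; Tg had 9, 11 and 10 reads over the antibody-treated, injured and uninjured libraries, Pax8 2, 0 and 2, and Foxe1 0 in each. Slc5a5, the iodide transporter, rose in injured against uninjured mice (0.32, edgeR adjusted p = 0.00910), and Slc26a4, pendrin, rose in antibody-treated against uninjured mice (0.58, adjusted p = 0.0120).

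Genes of the subdistal appendages, where CEP128 sits, were called in both directions or not at all. Besides Cep128, 8 of 9 listed genes were tested, and in antibody-treated against uninjured mice 0 were called in either direction, with a median of -0.09 against 0.01 over all genes; 0 had an unadjusted edgeR p under 0.05 and DESeq2 called 0. Injury alone, against uninjured mice, gave 1 that rose and 2 that fell, beside 11.9% and 11% of all genes tested. These were Dctn1, a dynactin subunit (0.35), Kif2a, a microtubule depolymerase (-0.48), and Cep170 (-0.69). In antibody-treated against injured mice 1 rose and 4 fell, beside 10.9% and 10.7%, led by Dctn1 (-0.38), Kif2a (0.42) and Ninl (-0.33). The called count of this list in that comparison moved under 6 alternatives to the processing. Of 18 genes of distal appendages and centriole assembly, 1 rose in injured against uninjured mice, Fbf1 (0.23); 0 were called in antibody-treated against uninjured mice (1 at an unadjusted edgeR p under 0.05, 0 by DESeq2); and 2 fell in antibody-treated against injured mice, Fbf1 (-0.30) and Pcnt (-0.46).

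Gtf2a2, which encodes the small TFIIA subunit that pairs with the product of Gtf2a1, averaged 25.5 ± 4.58 CPM in antibody-treated and 15.7 ± 3.24 CPM in injured mice (SD, n = 4 each), a log2 fold change of 0.70 (edgeR adjusted p = 0.00683). Taf4 (0.36) rose beside it and Ercc2 (-0.34) fell. In that comparison 3 of 26 general transcription factor genes tested rose and 1 fell, beside 10.9% and 10.7% of all genes tested. These counts are no result about the list. Injured against uninjured mice had 1 that rose, Ercc2 (0.45), and in antibody-treated against uninjured mice 0 were called (5 at an unadjusted edgeR p under 0.05, 0 by DESeq2). For Ston2, 26 genes of clathrin and AP2 endocytosis were tested. In injured against uninjured mice 5 rose and 7 fell, beside 11.9% and 11% of all genes tested. They were led by Fcho1 (0.38), Picalm (-0.40) and the AP2 subunit Ap2a1 (0.23). A single gene fell in antibody-treated against uninjured mice, Dnm1 (-0.18), beside 3.22% of all genes tested. At an unadjusted edgeR p under 0.05 there were 7 lower, and DESeq2 called 4 lower. In antibody-treated against injured mice 2 rose and 5 fell, beside 10.9% and 10.7%, led by Fcho1 (-0.54), Dnm1 (-0.34) and Ap2a1 (-0.37). Ston1, the paralogue of Ston2, was not called in any comparison. No list was tested as a set.

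Markers of brain regions and cell types also differed between the groups. General neuron markers (5) summed to 4752 to 5136 in antibody-treated, 4292 to 5009 in injured and 5372 to 5702 CPM in uninjured libraries. Summed CPM of 8 striatal markers was 1246 to 1343 in antibody-treated, 1170 to 1196 in injured and 1431 to 1510 in uninjured libraries, so for both lists uninjured libraries were highest, as for Tshr and Cep128. That was not so for 8 cortical markers, at 1210 to 1336 in antibody-treated, 1560 to 1754 in injured and 1556 to 1709 CPM in uninjured libraries. The neuron markers did not all move as their sum: of 5, 1 was called higher and 2 lower in injured than in uninjured mice. Snap25 held the most reads, with 157353, 153863 and 181929 over the antibody-treated, injured and uninjured libraries. Tubb3 had 16328, 23886 and 17531. Of the 8 striatal markers, 3 were lower in injured than in uninjured mice and 0 were called in antibody-treated against uninjured mice (2 at an unadjusted edgeR p under 0.05, 1 by DESeq2). The sum of 8 thalamic markers was 262.0 to 309.8 in antibody-treated, 253.9 to 288.3 in injured and 191.9 to 242.2 CPM in uninjured libraries, with 5 of 8 higher in each injured group than in uninjured mice. Hypothalamic markers summed to 12.8 to 22.9 in antibody-treated, 2.29 to 3.26 in injured and 1.41 to 3.62 CPM in uninjured libraries. Of 4 tested, 3 were higher in antibody-treated mice than in either other group. Of all genes tested, 10.9% were called higher in antibody-treated than in injured mice and 6.3% than in uninjured mice. Pmch (554, 25 and 15 reads over the antibody-treated, injured and uninjured libraries) and Hcrt (163, 5 and 3) held most of that sum. Pomc (57, 120 and 88) and Agrp (5, 15 and 8) had their fewest reads in antibody-treated mice. Meningeal fibroblast markers summed to 389.4 to 408.4 in antibody-treated, 182.1 to 199.0 in injured and 152.7 to 155.9 CPM in uninjured libraries, with 5 of 6 higher in antibody-treated mice than in either other group. Skeletal muscle markers summed to 77.6 to 109.4 in antibody-treated, 10.9 to 13.6 in injured and 8.40 to 12.2 CPM in uninjured libraries, with 6 of 6 higher in antibody-treated mice than in either other group. The part of tissue composition in the values of the 4 genes was not tested, and fewer cells of a type and less RNA per cell cannot be told apart in bulk tissue.

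Markers of tanycytes and of fat cells, both known for the receptor, were also summed. Tanycyte markers came to 127.2 to 138.0 in antibody-treated, 111.9 to 119.3 in injured and 116.2 to 124.8 CPM in uninjured libraries, and edgeR called 0 of 3 tested in any comparison (1 at an unadjusted p under 0.05 in each, and 1, 0 and 1 by DESeq2 in injured against uninjured, antibody-treated against uninjured and antibody-treated against injured mice). Crym held most of that sum, with 5152, 5563 and 4671 reads over the antibody-treated, injured and uninjured libraries, whereas the defining gene Rax had 2, 2 and 1 reads and Gpr50 11, 16 and 15. Adipocyte markers, included because fat cells carry the receptor, summed to 26.3 to 37.5 in antibody-treated, 27.6 to 35.0 in injured and 22.7 to 27.6 CPM in uninjured libraries. Lep, the hormone that defines fat cells, had no read in any group. Cidec (5 reads) and Cfd (1 read) had reads in antibody-treated mice alone. Adipoq had 1, 1 and 3 reads and Plin1 1, 6 and 2 over the antibody-treated, injured and uninjured libraries. Most of the sum came from Pnpla2, with 1093, 1364 and 1004 reads, and Lipe, with 574, 700 and 495. Of the 3 adipocyte markers tested 1 was higher in antibody-treated than in uninjured mice and 1 than in injured mice. The tested markers were Pnpla2, Lipe and Fabp4, and Fabp4 had 68, 16 and 16 reads over the antibody-treated, injured and uninjured libraries.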

How the data were processed

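Read counts per gene and TPM (transcripts scaled to gene length and library) were deposited by the authors in one table per library, per the file headers: total and unique exon reads, intron reads, junction reads and TPM. Per the submitters' processing notes, CASAVA 1.8.2, FastQC 0.11.8, Trimmomatic 0.39 and the GRCm38 build were used; for the aligner, counter and use of strand, nothing is stated in these sources. Coordinates of all 25749 genes equalled those of GENCODE M21.

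Exon and intron counts of all genes were each fitted with edgeR 4.0.16 (quasi-likelihood, TMM scaling, filterByExpr with at least 10 reads by group, all 12 libraries, group as the sole term), with Benjamini-Hochberg adjustment over 14771 and 11279 genes. CPM are counts scaled to the TMM-adjusted total of exon or intron reads. Ratios used limma 3.58.1 on log2 values with 2 reads added. DESeq2 1.42.0 was an alternative, and mgcv 1.9.3 fitted the GC and length trends. The edgeR fits were tested on simulated counts.

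The genes described, the pathway and marker lists and the comparisons were chosen with earlier results of these data known. Named genes are the 4 of the locus, tested genes within 2 Mb and the nearest called genes on either side. Named too are up to 3 called genes of smallest p per list and comparison, and the 5 most correlated with Tshr and with Cep128. Other genes, among them Trhr, Tg, Pax8, Foxe1, Lep and Ston1, were named outside this rule with their values seen. Alternatives covered scaling, filter, test, libraries, unique reads, a replicate block, trends, window and added reads. Pairs of libraries of one group differed by 2.89 to 47.0 times counting noise, so none was treated as one library deposited more than once. The summed pars tuberalis markers are not reported here.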

Additional observations from a re-analysis of the deposited data

Results flagged for a closer look

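In the antibody-treated group, 1 library had 37.05 CPM of Ston2 intron reads, replicate 4, and the gap to the next library took up 0.861 of the group's range. Its raw count was 26, against 10, 13 and 19 in the other libraries of that group.

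Nrxn3 exon reads in antibody-treated replicate 3 stood at 173.7 CPM, with a gap of 0.870 of the range. Both gaps exceeded Dixon's 95% critical value for 4 values. In all 36 groups of 4 values were checked, and chance flags about 1 in 20.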

How the results depend on the processing

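The log2 fold changes of Tshr and Cep128 exon reads against uninjured mice, by which they were chosen, kept their sign under every alternative that fitted them. A filter of at least 1 CPM in 4 libraries left Tshr out, so it has no value there. Whole-gene reads, added after the data were seen, gave Tshr -2.641 in injured and -1.992 in antibody-treated against uninjured mice. The GC and length trend removed gave Gtf2a1 -0.001032 in injured against uninjured mice and Dio2 0.006538. For antibody-treated against injured mice, Gtf2a1 exon reads gave 0.3436 without uninjured replicate 1 and antibody-treated replicate 4 together, 0.04981 with the trend removed, and 0.2155 to 0.4057 with single libraries left out. Gtf2a1 intron reads gave 0.7838 with exon factors and 0.8883 with the replicate block, where adjusted p was 0.0576 and the call was lost, and 0.7725 to 1.042 with single libraries left out. The Tshr intron to exon ratio gave 0.01679 with a pseudocount of 1 read. Single libraries left out gave Ston2 -0.001809 to 0.2667 for exon and -0.03388 to 0.5217 for intron reads in antibody-treated against injured mice, and Tshr intron reads -4.022 to -3.288 in injured and -3.013 to -2.469 in antibody-treated against uninjured mice.

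Called higher genes in injured against uninjured mice numbered 3157 with library size alone, 874 with the trend removed and 685 to 1659 with single libraries left out. Lower ones numbered 995 with library size alone, 2511 with only the compared groups and 580 to 2162. Between antibody-treated and uninjured mice, higher ones numbered 517 without the pair of libraries and 640 to 2054. Lower ones numbered 201 with library size alone, 883 with DESeq2, 232 with only the compared groups, 213 with the replicate block, 1777 with the trend removed, 244 without the pair and 213 to 1915. Between antibody-treated and injured mice, higher ones numbered 1058 with only the compared groups and 1053 to 1957, and lower ones 837 to 1816.

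Within 5 Mb, called genes in injured against uninjured mice numbered 2 with the replicate block, 3 with the trend removed, 2 without the pair, 2 in a 2 Mb window and 1 to 6 with single libraries left out. Between antibody-treated and uninjured mice there was 1 with DESeq2 size factors, no filter, only the compared groups, the replicate block or without the pair, 5 with DESeq2, 0 within 2 Mb and 0 to 12. Between antibody-treated and injured mice there was 1 with only the compared groups, 2 with the replicate block, 0 within 2 Mb and 2 to 7. Called counts in the pathway lists moved too, given for injured against uninjured, antibody-treated against uninjured and antibody-treated against injured mice. They moved under 8, 10 and 8 alternatives for hormone and cyclic AMP signalling and 9, 1 and 5 for thyroid hormone. For endocytosis it was 9, 13 and 1, and for general transcription factors 7, 3 and 4. Distal appendages and centriole assembly gave 11, 2 and 1. Subdistal appendages moved under 1 alternative in injured against uninjured mice and under 6 in antibody-treated against injured mice. Thyroid follicle genes moved under 1 in injured and 2 in antibody-treated mice, each against uninjured mice.

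Sel1l in antibody-treated against uninjured mice gave 0.03364 with library size alone, 0.08593 with the trend removed, 0.03383 without the pair, and -0.1083 to 0.03177 with single libraries left out. For antibody-treated against injured mice single libraries left out gave Dio2 -0.04652 to 0.0243 and Nrxn3 -0.02302 to 0.1837. In that comparison Dio2 and Sel1l, not called in the main fit, were each called under 1 alternative. The causes were not tested. The labels do not say whether replicate numbers pair the mice. Same-numbered libraries correlated from -0.532 to 0.434 in their deviations from group means, which cannot decide it. With the replicate block Tshr exon reads gave -2.012 in injured against uninjured mice. With that block the calls of Dio2 (adjusted p = 0.0822) and Nrxn3 (0.0557) in injured against uninjured mice were lost too. With at most 20 exon and 26 intron reads per library, depth limits Tshr, and single reads move its low values.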
